A study of Mus musculus with 18 samples.

Results

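RAD21 sites found only at 48 h are 2127 of the 15705 places in the genome at which the cohesin subunit RAD21 was called in mouse splenic B cells. They were chosen by their peaks alone. The pooled peak lists of resting, 48 h-stimulated and 96 h-stimulated B cells were merged wherever peaks shared at least 1 bp, and the members are the merged sites with a peak in the 48 h list and in neither of the others. They make up 13.5% of all merged sites, and this share was fixed by the rule. The members were then divided by whether replicate 2 at 48 h had a peak there, which gave 1812 sites with a replicate 2 peak and 315 sites without one.

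The B cells came from spleens of C57BL/6 wild-type mice (C57BL/6J in the methods of the study) aged 8 to 10 weeks. They were left resting (0 h) or cultured with 50 µg/ml LPS, a bacterial lipopolysaccharide sensed through Toll-like receptors, and 2 ng/ml of the cytokine IL-4, which together induce the switch to IgG1, for 48 h or 96 h. At 96 h the study enriched for cells that had switched to IgG1, so this group differs from the others in selection as well as in time. Each of the 3 time points had 3 replicates of chromatin immunoprecipitation and sequencing (ChIP-seq) with a RAD21 antibody, and cells of 12 mice were pooled for a replicate. The 9 input libraries entered only through the peak calling of the study. The lists hold no reads and no expression values, so the depth behind a peak is unknown and the labelled cell type could not be checked against marker genes.

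Cohesin is a ring-shaped complex that holds DNA strands together, and RAD21 is the kleisin subunit that closes the ring. In mammalian interphase cells cohesin extrudes chromatin loops and is found mostly where the zinc finger protein CTCF is bound to its motif. Genes transcribed by RNA polymerase III, such as tRNA and 5S ribosomal RNA genes, carry their promoter elements inside the transcribed region, and the B box is the element that in tRNA genes lies in the T arm. Tandem repeats of short units are common in the mouse genome and lie mostly outside exons.

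The 5 members with the highest 48 h pooled score that had a replicate 2 peak are printed first, on the plus strand of mm9 and 5′ to 3′. Capitals mark perfect tandem repeats (units of 1 to 4 bases, length 20 bases or more) or, in the fourth sequence, the B box word GGTTCGA.
chr4:101038894-101038996: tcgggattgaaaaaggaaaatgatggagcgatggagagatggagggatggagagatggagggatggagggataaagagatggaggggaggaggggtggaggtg
chr8:71066424-71066547: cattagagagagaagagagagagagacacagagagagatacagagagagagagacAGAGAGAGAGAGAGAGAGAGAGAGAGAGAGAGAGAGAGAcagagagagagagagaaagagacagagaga
chr14:39561047-39561151: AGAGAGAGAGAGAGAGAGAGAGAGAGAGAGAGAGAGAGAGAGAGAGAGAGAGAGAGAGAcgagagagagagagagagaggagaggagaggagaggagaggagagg
chr3:30500178-30500272: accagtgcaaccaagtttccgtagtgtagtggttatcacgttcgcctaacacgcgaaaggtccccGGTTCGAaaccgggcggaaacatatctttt
chr15:58952033-58952138: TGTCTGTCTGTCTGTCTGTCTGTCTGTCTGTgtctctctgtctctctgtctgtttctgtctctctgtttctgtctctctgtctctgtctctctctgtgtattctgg
The first of these is mostly purine on the plus strand without a perfect repeat, the next pair are AG repeats, and the last is a repeat of the 4-base unit TGTC. Their scores were 54.99, 48.23, 44.92, 43.56 and 41.65 in this order, all above the 97th percentile of the 48 h list. The chr8 site lies in an intron of Csgalnact1, the chr14 site in an intron of Nrg3, the chr3 site 784 bp from the start of Mynn, and the chr4 and chr15 sites are intergenic.

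The 3 highest-scoring members without a replicate 2 peak are printed in the same way, and they differ from each other in kind.
chr3:158604189-158604268: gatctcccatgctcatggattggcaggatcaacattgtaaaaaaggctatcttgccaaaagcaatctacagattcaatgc
chr17:48050649-48050778: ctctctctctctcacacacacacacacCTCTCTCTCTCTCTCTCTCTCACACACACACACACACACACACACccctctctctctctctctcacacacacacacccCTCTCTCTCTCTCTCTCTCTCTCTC
chr5:15113596-15113669: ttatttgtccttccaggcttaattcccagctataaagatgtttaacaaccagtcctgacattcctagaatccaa
The chr3 sequence has no 32-base word that occurs at a single place in mm9, and its words had a median of 29 copies. The chr17 sequence, in an intron of Foxp4, consists of CT and CA repeats. The chr5 sequence, 11249 bp from the start of Speer4d, also has no single-copy word, with a median of 2 copies. Their scores were 25.61, 17.27 and 16.38. The next 2 of this class, chr6:134993282-134993377 and chr1:19374139-19374232, were an ACAG and an AG repeat with scores of 16.32 and 16.22.

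Support by the separate replicates was confined almost wholly to replicate 2. Of the 2127 members, 1812 had a peak in replicate 2 at 48 h (85.2%, exact binomial 95% interval 83.6 to 86.7, counting error only), 11 in replicate 1 and 22 in replicate 3. Over all sites of the 48 h pooled list, 43.7% had a replicate 2 peak. The lists of replicates 1 and 3 held 1538 and 1563 peaks, against 5254 in replicate 2. These 2 had peaks at 0.517% and 1.03% of members. At sites found at all 3 time points their shares were 45.5% and 46.8%. They were 21.1% and 19.8% at sites shared with 96 h alone, and 7.97% and 14.5% at those shared with resting cells alone. The members were split on this measure, and the pooled list was made from reads of the same 3 replicates, so these shares are a description.

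Peaks in more than 1 replicate were rare, though the share over the whole 48 h list was not counted. A peak in replicate 2 alone was found at 1802 members, in replicate 3 alone at 14 and in replicate 1 alone at 7, and 293 members had a peak in the pooled list but in none of the 3 replicates. Only 11 members had a peak in at least 2 replicates, and 0 in all 3. Among the sites found at all 3 time points the pattern was the opposite, with 1084 of 2382 sites in replicate 1, 308 in replicate 2 and 1114 in replicate 3. Those sites were picked by a peak in each pooled list. The members were picked for having no pooled peak at the other time points, so few peaks in those 6 replicates follow from the rule. At 96 h, replicate 1 had a peak at 2 members and replicate 3 at 14. In resting cells, replicate 1 had a peak at 1 member and replicate 3 at 5. Resting replicate 2 and replicate 2 at 96 h each had a peak at 0 members.

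Replicate 2 at 48 h stood apart from the other 8 replicates in what its peaks contained. A tandem repeat was present in 46.4% of its 5254 peaks, against 3.97% of peaks in replicate 1 and 5.25% in replicate 3 at 48 h. In the resting replicates the shares were 4.77%, 3.17% and 4.05%, and in the 96 h replicates 4.17%, 2.75% and 3.8%. The 8 other replicates thus lay between 2.75% and 5.25%, and replicate 2 did not overlap them.

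The share of peaks with a motif learned from these data went the other way. The motif, of 20 bases with the consensus tataGCGCCCCCTaGTGGcc (capitals mark positions where the base reached at least 50%), was derived from sites called in 6 or more of the 9 replicates, and it has the form of the CTCF motif. On the chromosomes not used to learn it, 3.8% of replicate 2 peaks at 48 h had a match within 100 bp of the centre, against 90.1% in replicate 1 and 84.5% in replicate 3. The 6 replicates of the other time points had 88.6% to 94.4%. Median peak width was 65 bp in replicate 2 and 151 to 212 bp in the 8 others.

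**Figure D1:**
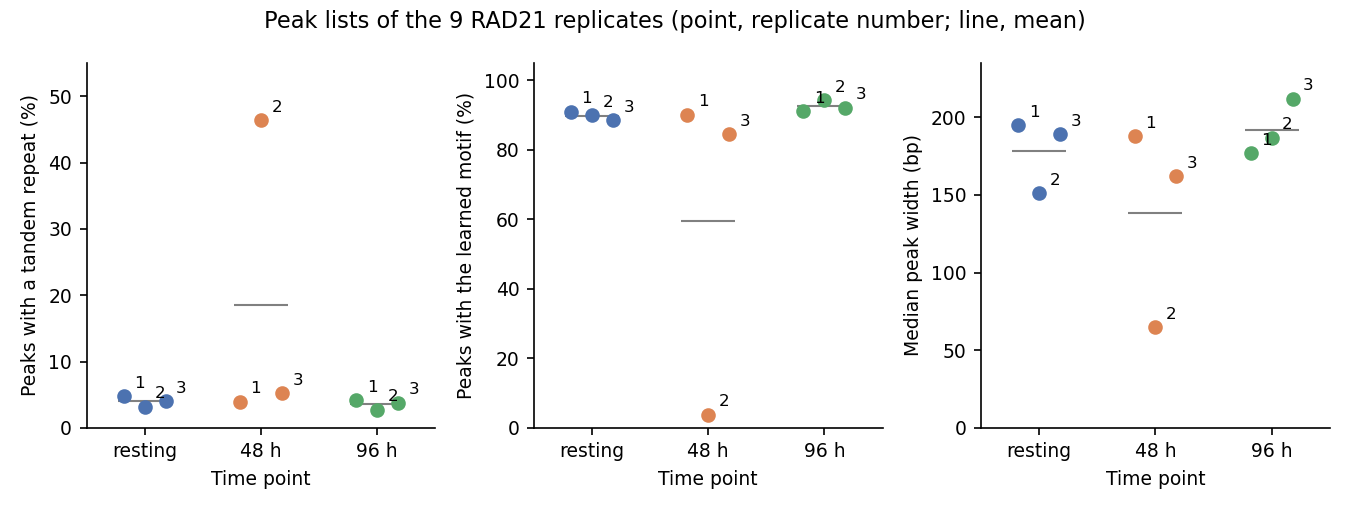
Share of peaks with a tandem repeat (%), share of peaks with the learned motif on chromosomes not used for learning (%), and median peak width (bp) in the 9 RAD21 replicates by time point, each point a replicate with its number and each line the mean of 3. Replicate 2 at 48 h sits at 46.4%, 3.8% and 65 bp, apart from the other 8 in each panel.

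Taken over time points, these differences did not pass the threshold. The mean share of peaks with a repeat was 18.5% ± 24.1 (SD, n = 3) at 48 h and 3.78% ± 0.73 (SD, n = 6) at the other time points, with p = 0.0476 by a two-sided exact permutation test and 0.0714 after Benjamini-Hochberg adjustment over 3 measures. For the motif the means were 59.5% ± 48.3 and 91.2% ± 1.96 (exact permutation p = 0.0357, adjusted 0.0714), and for median width 138 ± 64.8 bp and 185 ± 20.3 bp (exact permutation p = 0.107, adjusted 0.107). The smallest p that 84 arrangements allow is 0.0119. Replicate 2 at 48 h was also used to split the members, and the tests were chosen with earlier results of these data known. These p-values cannot tell a difference between time points from a difference of a single replicate. Without replicate 2 at 48 h the difference in repeat share fell from 14.7 to 0.82 percentage points, that in motif share from -31.7 to -3.89 and that in width from -46.8 to -10.2 bp.

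Tandem repeats were frequent under the peaks of the members, more so in those with replicate 2. A tandem repeat of at least 20 bases lay within 54.0% (51.6 to 56.3) of the 48 h peaks at members with replicate 2 and within 34.6% (29.4 to 40.1) of those without. In windows of the same width 1 kb to either side of all members the share was 2.85%. Sites found at all 3 time points had 5.75% in their 48 h peaks and 5.71% in their own windows 1 kb away. For sites found only at 96 h these shares were 2.92% and 6.35%. The intervals differed in width, with medians of 85 bp for members, 134 bp and 192 bp in this order. Sites found at 48 h and at 1 other time point lay between the members and the sites found at all 3. Repeats were in 14.9% of those shared with 96 h and 29.0% of those shared with resting cells. Fixed windows within 100 bp of the centre take no account of peak width. In them the shares were 68.3% with replicate 2, 49.2% without and 7.01% at sites found at all 3 time points. Such windows 1 kb away had 5.95% for all members and 7.62% for sites found at all 3 time points.

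Repeats were centred on the peaks. Within 500 bp of the centre, the share of bases inside a repeat reached 31.3% in the 25-bp bin at the centre of members with replicate 2 and 21.0% in that of members without, and in both classes it came down toward the level of the surrounding sequence within about 200 bp. At sites found at all 3 time points it reached 2.57% in the same bin, and at sites found only at 96 h it was 0.285%, under the level around them.

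**Figure D2:**
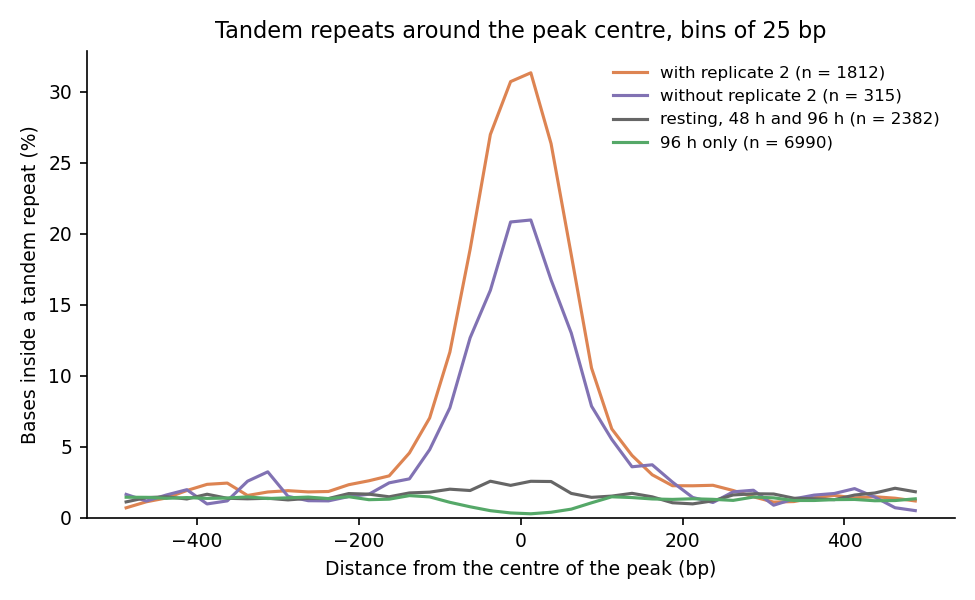
Share of bases inside a tandem repeat (%) against distance from the peak centre (bp) for members with and without a replicate 2 peak, sites found at all 3 time points and sites found only at 96 h. Members with replicate 2 reach 31.3% at the centre and members without reach 21.0%, while the other classes stay under 3%.

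The repeats were mostly of 1 kind. Of the 1087 members with a repeat, AG (read as CT on the other strand) was the longest repeat in 876, ACAG in 92, ACTC in 29, ACT in 21 and AC in 17. An AG repeat lay in 44.4% (42.1 to 46.7) of members with replicate 2 and 25.7% (21.0 to 30.9) of those without, against 0.588% of the windows 1 kb away and 0.587% of sites found only at 96 h. AC repeats, which are more numerous than AG repeats in mm9 (272983 against 120408 perfect runs of at least 20 bases), lay in 1.38% of members with replicate 2 and 0.847% of the windows 1 kb away. Excess over the surroundings was thus large for AG and small for AC.

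Most AG repeats of the genome carried no peak. Members lay on 1420 of the 120408 AG runs (1.18%), and replicate 2 peaks on 3163 (2.63%), while replicate 1 had peaks on 47 and replicate 3 on 85. The share of runs with a member was 1.49% for runs of 20 to 29 bases and 0.746% for runs of at least 60 bases, and it fell through each of the 3 length classes between them. The runs at members had a median of 39 bases and the other runs 42. The purine strand was the plus strand in 725 of the 1420 runs, and inside genes it was the sense strand in 201 of 451 (44.6%, 39.9 to 49.3), against 47.9% of the other runs in genes.

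Each member was counted once by the sequence under its peak, in an order of kinds set after the values had been seen. AG repeats took 796 of the 1812 sites with replicate 2 (43.9%) and 80 of the 315 without (25.4%). Sequence that had no perfect repeat of up to 6 bases but was at least 80% purine or at least 80% pyrimidine took 491 (27.1%) and 60 (19.0%). Repeats with a unit of 5 or 6 bases took 156 and 17, ACAG repeats 78 and 14, and other units of 1 to 4 bases 104 and 15. Purine-rich or pyrimidine-rich sequence at this level, repeats included, made up 78.9% of the members with replicate 2 and 49.5% of those without, against 5.71% of sites found at all 3 time points and 1.13% of windows 1 kb away. It made up 42.8% of sites shared with resting cells alone and 16.8% of those shared with 96 h alone.

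The learned motif, where none of these kinds applied, took 6 sites with replicate 2 (0.331%) and 53 without (16.8%, 12.9 to 21.4). Sequence whose words had a median of over 10 copies in mm9 took 11 and 21. The remaining 95 sites with replicate 2 (5.24%) and 55 without (17.5%) had none of these properties. The B box word took 52 sites with replicate 2 and genes named as 5S rRNA took 23, and each was at 0 of the 315 sites without, which allows a share of up to 1.16% by the exact interval. Other genes of RNA polymerase III were not searched for as a kind.

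**Figure D3:**
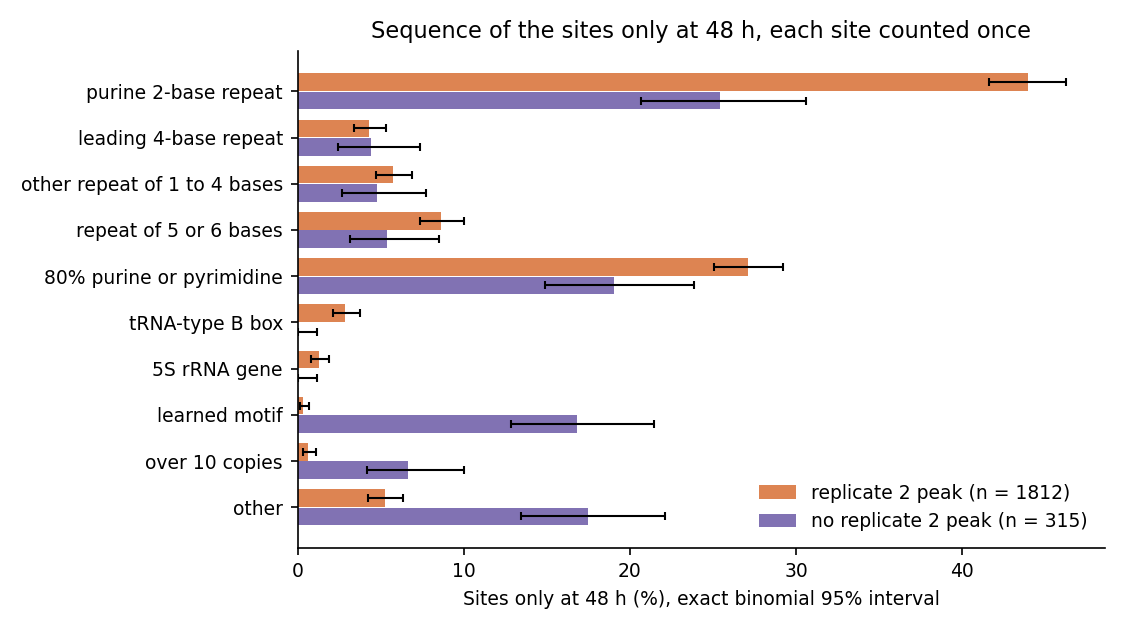
Share (%) of the 1812 members with and the 315 members without a replicate 2 peak by sequence under the peak, each site counted once, with exact binomial 95% intervals. The purine 2-base repeat is AG and the leading 4-base repeat is ACAG. Repeats and purine-rich sequence lead in both classes, B boxes and 5S rRNA genes appear only with replicate 2, and the learned motif makes up 16.8% of the class without it.

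The B box members shared sequence features of tRNA genes. The word GGTTCGA, searched on both strands, lay in 52 members, all with replicate 2, against 3 of 4251 windows 1 kb away (0.0706%), 11 of 2382 sites found at all 3 time points (0.462%) and 9 of 6990 sites found only at 96 h (0.129%). Its share was higher at sites shared with resting cells alone, at 8 of 138 (5.80%), than in members with replicate 2 (2.87%). At sites shared with 96 h alone it lay in 2 of 901 (0.222%). In 51 of the 52 the bases on either side of the loop paired over the 5 positions of a tRNA T arm, with G-T pairs allowed. Among the peaks of replicate 2 at 48 h, 80 of 85 with the word had this stem, and in the other 8 replicates between 0 and 4 peaks had it. The T arm was examined after the sequences had been seen, and the annotation used here lists no tRNA genes.

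A pair of them, the next in score after the site near Mynn, and the highest-scoring 5S rRNA gene are printed with the B box or the annotated gene in capitals. They were chosen after their values had been seen, to show the element inside the peak.
chr3:96232133-96232240: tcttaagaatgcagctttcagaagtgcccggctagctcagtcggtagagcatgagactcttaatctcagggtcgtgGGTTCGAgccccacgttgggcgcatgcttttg
chr11:115274274-115274369: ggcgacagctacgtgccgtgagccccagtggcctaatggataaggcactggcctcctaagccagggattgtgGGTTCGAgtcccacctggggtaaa
chr11:74133317-74133430: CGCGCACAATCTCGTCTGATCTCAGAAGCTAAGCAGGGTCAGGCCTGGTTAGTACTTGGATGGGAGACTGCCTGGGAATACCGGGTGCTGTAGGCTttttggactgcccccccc
Their scores were 41.56, 40.44 and 33.71. The B box members had a median score of 17.39 and the 5S members 14.93, against 11.60 for AG repeats, and 4 of the 20 highest-scoring members held a B box. These genes have near-identical copies elsewhere in the genome, so reads may have been placed at a copy other than their source.

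The B box members were grouped. Chromosome 13 held 13 of them, chromosomes 3 and 11 held 10 each and chromosome 1 held 5. Sites no more than 1 Mb apart formed groups of 8 on chr3:96136638-96962110, 7 on chr11:68851348-68937827, 7 on chr13:21253248-22118489, 6 on chr13:23524868-23609150 and 4 on chr1:172968123-173041646. The first chromosome 13 group spans 18 replication-dependent histone genes, among which tRNA genes are known to lie, and the chromosome 11 group spans Per1, a core component of the circadian clock, and Aurkb, the Aurora B kinase of mitosis. B box members lay nearer to protein-coding genes than the others, at a median of 9120 bp from the nearest start.

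The 5S members were grouped as well. Of 332 genes annotated as rRNA, 28 members overlapped at least 1, all with replicate 2, and 15 of them were on chromosome 8, in the 5S gene array. These 28 were 1.32% of members, against 0.168% of sites found at all 3 time points and 0 of the windows 1 kb away. The 23 sites on genes named as 5S had scores from 9.68 to 33.71. In all, 4 sites overlapped U2 snRNA genes, 3 with replicate 2 and 1 without, among them chr11:101507139-101507246 with a score of 33.71. Genes annotated as snRNA were at 0.188% of members, 0.042% of sites found at all 3 time points and 0.0235% of windows 1 kb away. No member overlapped an annotated snoRNA or miRNA gene. Such overlaps were also rare at sites found at all 3 time points, with 1 for snoRNA and 0 for miRNA.

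A CTCF-type motif was nearly absent from the members with replicate 2. It was matched at 23 of 1812 (1.27%, 0.81 to 1.90) of them and at 56 of 315 without (17.8%, 13.7 to 22.5), against 3.48% of windows 1 kb away, 86.9% of sites found at all 3 time points and 93.6% of sites found only at 96 h. On the chromosomes not used for learning the shares were 1.52% and 18.8%, and 87.6% at sites found at all 3 time points. Members with replicate 2 were thus below the windows around them, and members without it were above. The motif was learned from sites called in 6 or more of the 9 replicates, and no member was among those sites. Part of the contrast with sites found at all 3 time points may therefore follow from how the learning sites were chosen.

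Where replicate 1 or 3 had a peak and replicate 2 had none, the sites had the motif more often. Of these 22 members, 10 had the motif (45.5%, 24.4 to 67.8) and 0 a tandem repeat, while of the 293 with no replicate peak 46 had the motif (15.7%) and 109 a repeat (37.2%). The member with peaks in both replicate 1 and replicate 3 is printed with its motif match in capitals.
chr9:105279432-105279561: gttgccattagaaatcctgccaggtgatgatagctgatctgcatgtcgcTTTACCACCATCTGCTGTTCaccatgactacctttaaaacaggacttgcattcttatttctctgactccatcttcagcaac
It lies in an intron of Nek11, a kinase of the DNA damage checkpoint, was 130 bp wide and had a score of 7.72, at the 31.9th percentile of the 48 h list. The other 9 named members with 2 replicates all included replicate 2, and 7 of them held an AG or ACAG repeat while 2 were purine-rich or pyrimidine-rich without one. Their scores ran from 17.14 to 54.99.

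Little of the members' sequence was single-copy. The share of 32-base words at a single place in mm9 had a median of 21.3% in members with replicate 2 and 31.8% in members without, against 100% in 48 h peaks at sites found at all 3 time points. All words were single-copy in 29 of the 1812 (1.60%) and 66 of the 315 (21.0%), and in 2051 of the 2382 sites found at all 3 time points (86.1%). No word was single-copy in 470 (25.9%) and 98 (31.1%). At the 138 sites shared with resting cells alone the median was 45.2%. All words were single-copy in 33 of them (23.9%) and no word in 11 (7.97%). At sites shared with 96 h alone the median was 100%, and all words were single-copy in 73.5%. Median GC content was 50.6% with replicate 2 and 49.3% without, above the 42.0% and 42.5% of their windows 1 kb away.

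The peaks at the members were short. The 48 h pooled peak had a median width of 86 bp (73 to 361) with replicate 2 and 77 bp (73 to 192) without, against 134 bp (73 to 690) at sites found at all 3 time points. The shortest peak was 73 bp in the 48 h pooled list, 141 bp in the resting and 140 bp in the 96 h pooled list, and 58 bp in replicate 2 at 48 h, while no other replicate had a peak under 126 bp. A pooled peak shorter than that was found at 91.0% of members with replicate 2 and 92.1% of those without, and made up 67.6% of the whole 48 h pooled list.

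**Figure D4:**
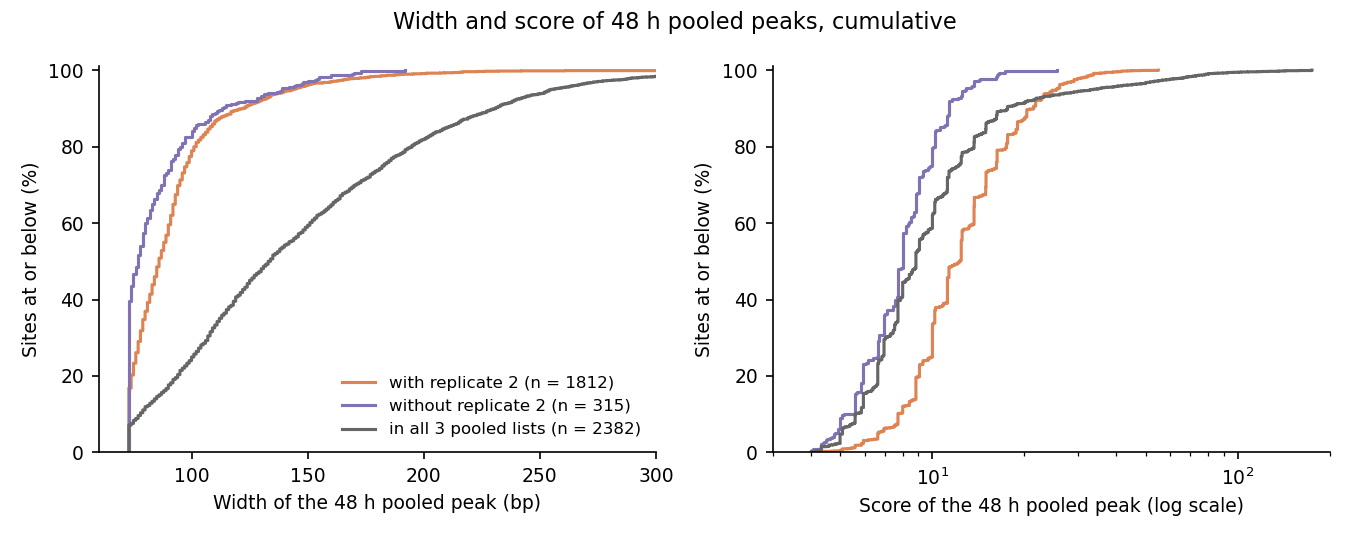
Cumulative share of sites (%) by width (bp) and by score (log scale, rank use only) of the 48 h pooled peak, for members with and without a replicate 2 peak and for sites found at all 3 time points. Both member classes start at 73 bp with medians of 86 and 77 bp, and members with replicate 2 lie to the right of the others in score up to about 20.

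Scores were higher with replicate 2 than without. The split used a replicate whose reads were part of the pool that gave the score, so this is a description. The score is the peak caller's and its statistic is not named, so it ranks peaks within the list only. Its median was 12.35 with replicate 2, at the 68.1st percentile of the 48 h list, and 8.0 without, at the 36.0th percentile, against 8.84 at sites found at all 3 time points. The highest member score was 54.99, and the highest score of a site found at all 3 time points was 175. Members were 38.1% of the 5579 peaks of the 48 h list. Among its 100 highest peaks only 1 was a member (1%), and among the first 500 174 were (34.8%). Among the first 1000 there were 480 (48%) and among the first 2000 1025 (51.3%).

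Members with replicate 2 lay in gene bodies less often than base pairs at large. The centre fell within a gene body at 565 of the 1812 sites with replicate 2 (31.2%, 29.1 to 33.4) and 106 of the 315 without (33.7%, 28.4 to 39.2), against 38.2% of sequenced base pairs, 38.5% of sites found at all 3 time points and 43.7% of sites found only at 96 h. Within 3 kb upstream of a start lay 4.03% (3.17 to 5.04) and 5.40% (3.17 to 8.50), against 3.43% of base pairs and 10.2% of sites found at all 3 time points. The nearest protein-coding start was at a median of 64340 bp with replicate 2 and 45237 bp without, and at 18792 bp for sites found at all 3 time points.

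By feature, introns held 541 and 95 of the members, and intergenic sequence 1155 (63.7%) and 191 (60.6%), against 57.8% of base pairs and 49.0% of sites found at all 3 time points. Coding exons held 3 sites with replicate 2 (0.166%) and 4 without (1.27%), against 1.40% of base pairs. The 3′ untranslated exons held 8 and 1, and 5′ untranslated exons 0 of either, which allows up to 0.203% of sites with replicate 2. Promoters within 1 kb held 1.71% (1.17 to 2.42) of members with replicate 2 and 2.54% (1.10 to 4.94) of those without, against 1.12% of base pairs and 4.37% of sites found at all 3 time points. Of the 52 B box members, 13 lay within 3 kb upstream of a start and 4 in a gene body, while of the 876 sites counted as AG repeats 35 lay upstream and 286 in a gene body.

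The 7 members in coding exons fell into groups by class. With replicate 2 they lay in the histone genes Hist4h4, with a score of 16.30, and Hist1h2be, with 12.52. The third lay in Gm10722, a gene model of repeated sequence, with 5.03. Single-copy words made up 98.1% of the Hist4h4 site, 0% of the Hist1h2be site and 2.82% of the Gm10722 site. Without replicate 2, those in Wdr17, Vrk1, a nuclear kinase of chromatin, and Mei1, a gene of meiotic recombination, had the learned motif and all of their words single-copy, with scores of 6.63, 5.59 and 4.99. The last, in Gm13051, had no single-copy word. Of 67 histone genes, 2 had a member within 1 kb (2.99%), against 2.89% of all protein-coding genes.

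Members within 1 kb upstream of a start numbered 31 with replicate 2 and 8 without. Outside chromosome 18, the highest with replicate 2 were at Mynn, a zinc finger protein, Adam5, Sacm1l, Ppp6r3 and Acp6. They lay at 784, 872, 416, 550 and 640 bp from the start. Their scores were 43.56, 36.84, 29.11, 27.02 and 25.61. Those near Mynn, Sacm1l and Acp6 held a B box, that near Adam5 an AG repeat, and that near Ppp6r3 none of the kinds searched. Without replicate 2, the highest outside chromosome 18 were at Lmo3, Ces1f, Rps29, Zic4 and Cmas, with scores of 13.73, 10.01, 9.32, 9.08 and 8.23. Of these, the sites at Lmo3 and Zic4 were AG repeats. The site near Rps29, 148 bp from its start, overlapped an annotated misc_RNA gene.

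In 3′ untranslated exons outside chromosome 18 the sites with replicate 2 lay in Hdac9, a histone deacetylase, Ptprt, Hes7, Psg19, Npbwr1, Ephb2 and Lars2. Their scores ran from 5.96 in Lars2 to 31.37 in Hdac9. The 1 site without replicate 2 lay in Cyb5r3, with 7.13. Those in Hdac9, Ptprt, Hes7 and Ephb2 were AG repeats. The Hes7 site was the 1 of them that also had a peak in replicate 3 at 96 h.

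By gene extent 601 of 22367 protein-coding genes held at least 1 member, and 537 of the 601 held a single site. The median length was 153.6 kb for genes holding a member and 15.4 kb for all protein-coding genes. An effect of gene length was not tested. Gm20388, a gene model of 4435 kb, held 21, and Fgfr2, a fibroblast growth factor receptor with an annotated extent of 3009 kb, and Macrod2, of 1998 kb, held 4 each.

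Members at genes of B cell activation and class switching were counted over 8 lists. Of their 143 annotated genes, 5 (3.5%) had a member in or within 10 kb of them, a share near the 4.34% of all protein-coding genes. Of 18 annotated regulators of B cell identity and plasma cells, these were Ikzf1 (Ikaros), Ikzf3 (Aiolos) and Mef2c. Of the 21 genes of the LPS receptor and NF-kB pathway only Nfkb1, which encodes the p105 precursor of p50, had members, and of the 22 genes of class switching and DNA break repair only Dclre1c, which encodes the nuclease Artemis.

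The sites at these genes were of several kinds. The Mef2c site, in an intron, was an AG repeat with replicate 2 and a score of 12.44. The Dclre1c site, an AG repeat with replicate 2 and a score of 14.96, lay 2326 bp from the start. Near Nfkb1 a pair of sites with replicate 2, 108 bp apart and with scores of 7.75 and 9.35, lay within 10 kb of the gene. The intronic sites of Ikzf1, with 8.0, and Ikzf3, with 10.01, had no replicate 2 peak, the first purine-rich or pyrimidine-rich and the second multi-copy, on a U2 snRNA gene model. None of the 19 annotated genes of B cell receptor signalling, 12 of IL-4 signalling, 16 of cohesin, its loader and CTCF, 22 of the cell cycle and replication and 14 of homing and adhesion had a member within 10 kb.

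The density of members was compared by chromosome. There were 0.708 sites with replicate 2 per sequenced Mb (exact Poisson 95% interval 0.676 to 0.742) and 0.123 (0.110 to 0.137) without. With replicate 2 the autosomes ranged from 0.597 on chromosome 15 to 0.895 (0.753 to 1.06) on chromosome 3, and without it from 0.0705 on chromosome 7 to 0.199 (0.127 to 0.296) on chromosome 9. Sites found at all 3 time points ranged over the autosomes from 0.748 on chromosome 3 to 1.61 on chromosome 11.

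On the X chromosome the classes differed in density. It held 0.512 (0.408 to 0.635) members with replicate 2 per Mb and 0.123 (0.0754 to 0.191) without, against 0.0925 sites found at all 3 time points. Relative to the whole genome, members with replicate 2 were thus moderately sparser on X and members without were at the genome level, while sites found at all 3 time points, at 0.931 per Mb over the genome, were far sparser. On chromosomes 11 and 19, where sites found at all 3 time points were densest at 1.61 and 1.57 per Mb, members with replicate 2 had 0.741 and 0.636. The sequenced 2.70 Mb of Y held 6 and 4 members, which is 2.22 (0.815 to 4.83) and 1.48 (0.403 to 3.79) per Mb, and 0 sites found at all 3 time points.

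**Figure D5:**
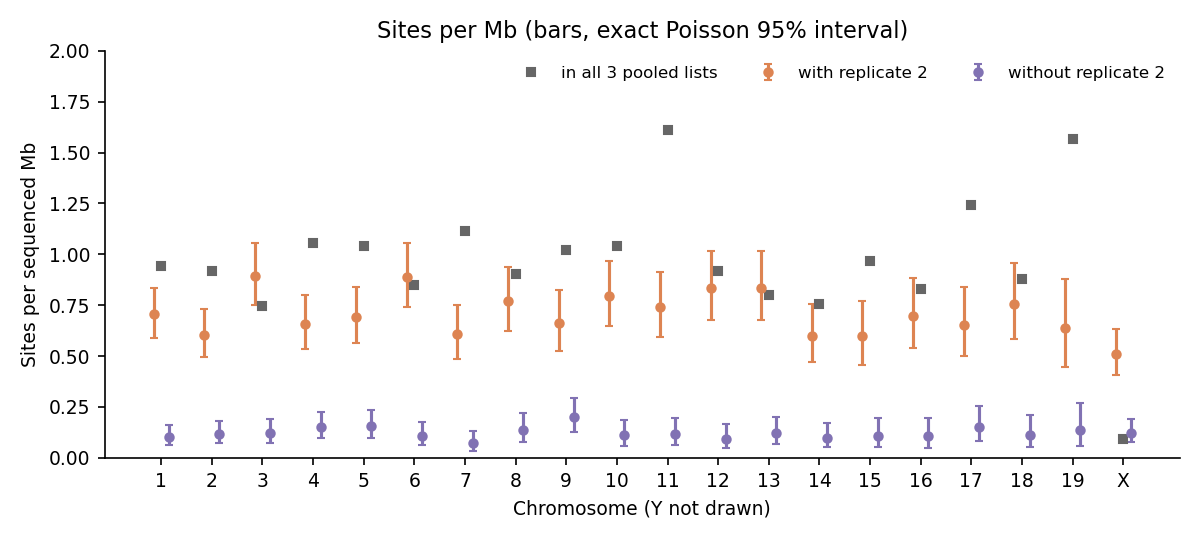
Sites per sequenced Mb on the autosomes and X (Y is not drawn) for members with and without a replicate 2 peak, with exact Poisson 95% intervals, and for sites found at all 3 time points. Over these chromosomes members with replicate 2 range from 0.512 on X to 0.895 on chromosome 3, while sites found at all 3 time points range from 0.0925 on X to 1.61 on chromosome 11.

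Most members had no other member nearby. The nearest was at a median of 363367 bp, against 174919 bp between sites found at all 3 time points, and 113 of the 2127 had 1 within 10 kb (5.31%), against 178 of the 2382 sites found at all 3 time points (7.47%). Within 1 kb the counts went the other way, with 42 members and 30 sites found at all 3 time points. Of 21 neighbouring pairs no more than 1 kb apart, 4 were on each of chromosomes 3, 11 and 13.

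Few members were near the limits of the rule. A resting or 96 h pooled peak lay within 100 bp of 8 members and within 500 bp of 30, at a median distance of 109886 bp, and on the other side of the rule 5 pooled 48 h peaks shared at most 20 bp with a peak of another time point. Replicate 2 peaks shared a median of 71 bp with the members they overlapped, and at most 20 bp with 1 of them. Of the 315 members without replicate 2, 2 had a replicate 2 peak within 100 bp.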

How the data were processed

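RAD21 ChIP-seq peak lists of 9 replicates and 3 pooled samples of splenic B cells were analysed. The authors aligned reads to mm9 with Bowtie 2, subsampled every library to an equal number of unique positions, merged replicates into pooled samples and ran MACS 2 with input as control (false discovery rate 0.05). The deposited unit is the score of that peak caller, whose statistic is not named, and it was used only for ranks and minimums. How reads with several equal placements were treated is not given in the sources used here. Depth behind a peak is unknown, and intervals cover counting error only.

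Peaks sharing 1 bp were merged. The members, gene lists and tests were chosen with earlier results of these data known. Repeats were perfect, with units of 1 to 4 bases and a length of 20 bases or more. The motif was learned on 11 chromosomes from 524 sites, and a match was a level passed by 5% of windows 1000 bp away. Words had 32 bases. Features came from protein-coding transcripts of GENCODE M1 on NCBIM37, the same assembly as mm9, by site centre. The 3 measures over replicates were compared by two-sided exact permutation tests. The B box, T arm, 5S, purine, copy and histone measures were added after the data had been seen. Sites outside chromosome 18 were named by score, replicate support, exon or promoter position and gene list. Python 3.11.15, numpy 2.4.6, scipy 1.17.1 and matplotlib 3.10.9 were used, and methods were tested on simulated data. Alternatives are given in the closing section.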

Additional observations from a re-analysis of the deposited data

How the results depend on the processing

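The number of members and their make-up depended on what counted as shared. Dropping the members whose only replicate peak was in 1 given 48 h replicate left 325 to 2120 sites, with 325 for replicate 2. This is a subtraction of the replicate counts, since the pooled list was not called again. Requiring overlap of 50% of both peaks gave 3431 sites. Under it a short 48 h peak inside a wider peak of another time point can count as unshared, but such sites were not counted. Of the 3431 sites, 56.4% had a replicate 2 peak. That share was 93.4% for peaks at or above the median score of their own list, 77.3% with every pooled list limited to its 5579 highest peaks and 73.1% with the higher-scoring replicate 2 peaks only. For sites with replicate 2, the share with a repeat was 57.6% at or above the median score, 67.9% for repeats of at least 15 bases, 39.1% for at least 30, 62.6% for units up to 6 bases and 68.3% within 100 bp of the centre. For sites without replicate 2 it was 7.89% under the 50% overlap, 19.9% with limited lists, 41.9% for at least 15 bases, 23.5% for at least 30 and 49.2% within 100 bp. The motif share with replicate 2 was 2.53% under the 50% overlap and 0.276% at a level passed by 1% of windows. Without replicate 2 it was 74.5% under the 50% overlap, 26.5% at or above the median score, 50.3% with limited lists and 11.7% at the stricter level. With all annotated transcripts, 6.90% of sites with replicate 2 lay within 3 kb upstream of a start and 35.5% in a gene body, and under the 50% overlap 8.82% of sites without it lay upstream. Median width with replicate 2 was 91 bp at or above the median score and 88 bp with limited lists, and without it 85 bp under the 50% overlap, 82 bp at or above the median score and 84 bp with limited lists. The causes of these movements were not tested.

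The 3 comparisons of replicates kept their direction and stayed short of the adjusted threshold under every alternative. Leaving out 1 replicate gave differences of 0.82 to 22.0 percentage points in repeat share, -47.0 to -3.89 in motif share and -71.7 to -10.2 bp in width, and the values nearest 0 were those without replicate 2 at 48 h. With the replicate block, permuting time points within replicate numbers, the differences were the same, 14.7, -31.7 and -46.8, with an adjusted p of 0.111 by the exact permutation test for each, and 27 arrangements allow no p under 0.037. A fixed window within 100 bp of the peak centre, added after the data had been seen, gave a difference in repeat share of 19.8 percentage points (exact permutation p = 0.0357, adjusted 0.0536). Unknown depth and peak calling on pooled reads limit every site, since a pooled peak can rest on reads of 1 replicate.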

Other observations

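The 138 sites found in resting cells and at 48 h but not at 96 h resembled the members in several measures. Of these, 100 had a replicate 2 peak at 48 h (72.5%, 64.2 to 79.7), 40 held a tandem repeat (29.0%, 21.6 to 37.3) and 8 a B box (5.80%, 2.54 to 11.1), while 29 had the learned motif (21.0%). Their 48 h pooled peaks had a median score of 17.64, above the 12.35 of members with replicate 2, and a median width of 104 bp.

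Replicate 2 peaks at 48 h lay mostly outside the pooled list. Of its 5254 peaks, 1813 lay at members, 625 at other sites of the 48 h pooled list and 2816 (53.6%) at no pooled 48 h peak. These last held a repeat in 43.1% (41.2 to 44.9) and the learned motif in 2.24%, and the 625 peaks at other pooled sites held a repeat in 43.8% and the motif in 20.5% (17.4 to 23.9).

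Merged over the 9 replicates, peaks with the word GGTTCGA lay at 120 places, of which 78 had such a peak in replicate 2 at 48 h alone, 7 in replicate 2 and another replicate, and 35 in other replicates alone.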
